A study of Homo sapiens with 16 samples.

Results

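The genes described here are those that NEL moved in the same direction in KG1A and in U937, human acute myeloid leukaemia lines. The genes tested were the 12642, of 34618 gene IDs in the deposited count table, that had a mean of at least 1 CPM (counts scaled to library size) in the NEL or the DMSO group of each line. Every one of the 16 libraries entered an additive model with cell line as the block and treatment as the tested term, and the effect of NEL was also fitted within U937 alone and within KG1A alone, on 8 libraries each. The groups were U937 with 10 µM NEL, U937 with the vehicle DMSO, KG1A with 10 µM NEL and KG1A with DMSO, with 4 libraries in each, and all cells grew in RPMI medium with dialyzed serum and antibiotics. U937 is a promonocytic line and KG1A an immature, CD34-positive line, so the word shared means shared by these 2 lines. The labels give no time of treatment and do not tie the 4 libraries of a group to separate cultures. The spread between libraries of a group, which enters every p-value given here, may therefore be technical only. In the additive model a difference of the effect between the lines also counts as spread. At the edge of the level rule, LOXL2 was just inside with 1.00 CPM in its higher KG1A group, and SEMA4C was just outside with 0.997 CPM in its higher KG1A group.

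The labels do not spell NEL out, and it is named here only as they name it. The title of the series concerns ribonucleotide reductase, deoxynucleotide balance and blocked differentiation. Deoxynucleotides for DNA are made by ribonucleotide reductase, a complex of the RRM1 and RRM2 subunits, and are broken down by SAMHD1. Genes of the start of S phase are driven by E2F transcription factors, which cyclin-dependent kinases release from RB1, and the p21 protein encoded by CDKN1A inhibits those kinases.

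Libraries held between 10641567 and 11777684 counts, and 3 counts, the number that a count of 0 allows, corresponded to between 0.255 and 0.282 CPM. The blood cell marker PTPRC was at 444 CPM or more in U937 with NEL, 184 CPM or more in U937 with DMSO, 700.3 CPM or more in KG1A with NEL and 811 CPM or more in KG1A with DMSO. CD34 stayed at or below 1.23 CPM in every U937 library and at or above 827 CPM in every KG1A library. The myeloid markers SPI1 and CD33 were high in U937 and low in KG1A. SPI1 had 130 to 155 CPM in U937 with NEL and 115 to 150 CPM in U937 with DMSO. CD33 had 105 to 115 CPM in U937 with NEL and 83.5 to 88.9 CPM in U937 with DMSO. In KG1A libraries SPI1 stayed at or below 6.66 CPM and CD33 at or below 1.97 CPM. The myeloid granule gene MPO stayed at or below 0.652 CPM in every library. Other granule genes were high in U937. ELANE had 213 to 226 CPM there with NEL and 363 to 438 CPM with DMSO. PRTN3 had 385 to 421 CPM with NEL and 917 to 1014 CPM with DMSO, and CTSG 944 to 1020 and 1179 to 1238 CPM. AZU1 was higher with NEL, at 408 to 443 CPM against 229 to 263 CPM. In KG1A libraries ELANE, AZU1 and PRTN3 stayed at or below 0.376 CPM and CTSG at or below 3.26 CPM. Some markers of other blood lineages were present in KG1A, so that the summed level of 13 T lymphoid markers was 269 to 294 CPM in U937 with NEL, 173 to 197 CPM in U937 with DMSO, 383 to 393 CPM in KG1A with NEL and 389 to 403 CPM in KG1A with DMSO. In U937 CD4 was the only one of them with a mean above 1 CPM. The 12 B lymphoid markers summed to 91.7 to 99.6 CPM in U937 with NEL, 47.8 to 54.1 CPM in U937 with DMSO, 491 to 565 CPM in KG1A with NEL and 511 to 559 CPM in KG1A with DMSO. The 15 erythroid and megakaryocyte markers summed to 136 to 144 CPM in U937 with NEL, 288 to 296 CPM in U937 with DMSO, 775 to 826 CPM in KG1A with NEL and 717 to 755 CPM in KG1A with DMSO, with the globin genes HBA1, HBA2 and HBB at 0 counts in every library. The 13 epithelial and fibroblast markers summed to at most 9.94 CPM in any library. The part of these lists in the results was not tested. Within every group, libraries 1 and 3 resembled each other more than they resembled 2 and 4, a split found in the data and given by no label. Each set was therefore also fitted alone.

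NEL changed 54.5% of the genes tested in the additive model, and 44.1% of those were called the same way in both lines. With a call at an edgeR quasi-likelihood adjusted p (Benjamini-Hochberg) under 0.05, the additive model called 3386 genes higher with NEL, 26.8% of those tested, and 3504 genes lower, 27.7%. Within U937, 4364 genes were higher (34.5%) and 4422 lower (35%), and within KG1A, 3006 were higher (23.8%) and 2976 lower (23.5%). The genes called in the same direction in both lines were 1587 higher (12.6%) and 1453 lower (11.5%), and a further 1404 genes (11.1%) were called in opposite directions. Of the 6890 genes called in the additive model, 3039 (44.1%) were called the same way in both lines, 2875 (41.7%) in U937 alone, 799 (11.6%) in KG1A alone, 107 in neither line and 70 in opposite directions. With library number as a block the additive model called 2927 genes higher and 3050 lower, and 1985 were higher and 1987 lower in both lines. Higher genes made up 49.1% of the additive calls and 52.2% of the genes called the same way in both lines. On log2(RPKM + 0.5) with limma-trend these shares were 61.2% and 68.5%, the genes lower in both lines then numbered 907, and within KG1A 3632 genes were higher and 2051 lower. In the odd-numbered libraries alone the additive model called 1964 genes higher and 1915 lower, and 1477 were higher and 1419 lower in both lines. In the even-numbered libraries alone it called 1977 higher and 1922 lower, and 1528 were higher and 1395 lower in both lines.

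The sizes of the 2 effects were only loosely related. Over the 12642 genes the U937 and KG1A log2 fold changes correlated with a Pearson coefficient of 0.293 (Spearman 0.279). The lines share no library, and the points are genes, which are not independent replicates. The line by treatment term, which tests U937 minus KG1A directly, was called in 7396 genes, 58.5% of those tested. Among the 3040 genes called the same way in both lines, the change was larger in U937 in 2057 and larger in KG1A in 983, and the difference was called in 1499 and missed the threshold in 1541. The median size of the change in those genes was 0.53 on the log2 scale in U937 and 0.35 in KG1A. Changes of at least 2-fold in both lines were rare, with 99 genes higher and 10 lower. Of these 109 genes, 35 had a mean of at least 5 CPM in the higher group of each line. Some of the 99 met the level rule only through a NEL group, such as C5AR1, with 0.460 CPM in KG1A with DMSO. The rule admits such genes on the higher side only, so the numbers 99 and 10 are a description. NEL and DMSO libraries did not overlap in either line in 3737 genes, 29.6% of those tested. Genes lower in both lines had higher DMSO levels than genes higher in both lines. The median DMSO levels were 73.3 CPM in U937 and 70.4 CPM in KG1A for the lower genes. For the higher ones they were 29.6 CPM in U937 and 29.1 CPM in KG1A, and for all genes tested 32.8 CPM in U937 and 31.6 CPM in KG1A. The DMSO libraries enter both the level and the change, and the level rule admits low DMSO levels only with a high NEL group. This comparison is therefore a description.

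**Figure D1:**
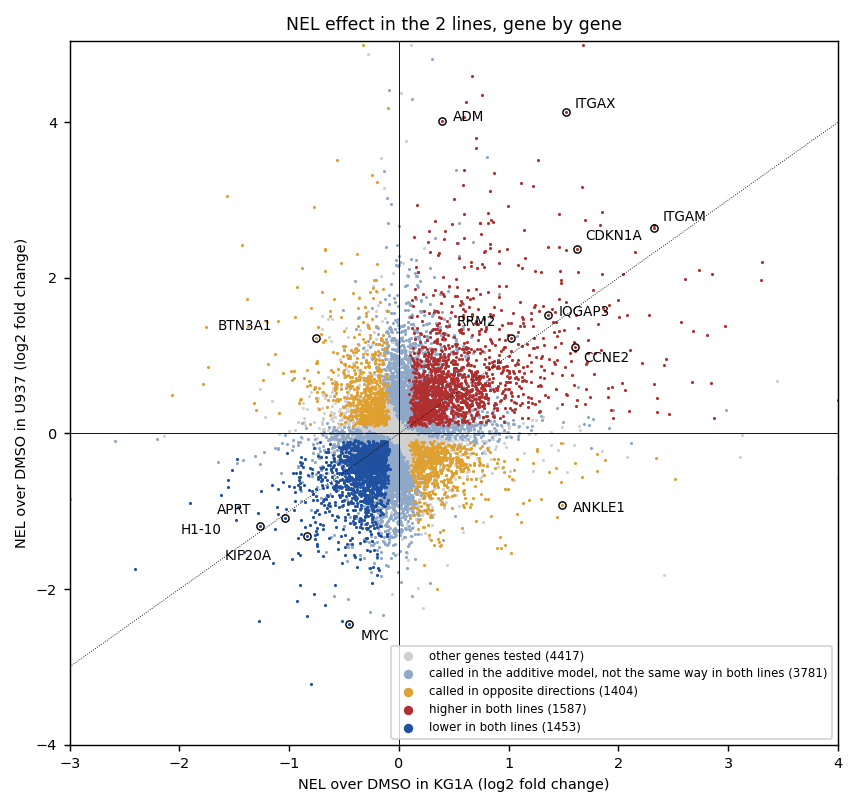
Log2 fold change of NEL over DMSO in U937 (vertical axis) against the same in KG1A (horizontal axis) for the 12642 genes tested; the dotted line marks equal changes, and points past the axes are drawn at their edge. The 1587 genes higher and 1453 genes lower in both lines fill opposite quadrants, the 1404 genes called in opposite directions fill the others, and ITGAM and H1-10 lie close to the line of equal change.

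ITGAM, the integrin alpha chain of complement receptor type 3 on monocytes and granulocytes, led the genes named as higher in both lines, by its additive p and by the smaller of its 2 changes. ITGAM (ENSG00000169896, GRCh37 chr16:31271311-31344213) had 58.9, 56.6, 52.4 and 55.9 CPM in the U937 NEL libraries, against 9.96, 9.29, 8.0 and 8.63 CPM in the U937 DMSO libraries. It had 10.7, 12.3, 12.7 and 10.9 CPM in the KG1A NEL libraries, against 2.45, 2.50, 1.54 and 2.75 CPM in the KG1A DMSO libraries. Every NEL library lay above every DMSO library of its line. The log2 fold change was 2.53 (SE 0.089, edgeR adjusted p = 5.28e-12) in the additive model, 2.64 (SE 0.074, edgeR adjusted p = 1.31e-11) in U937 and 2.33 (SE 0.15, edgeR adjusted p = 4.52e-08) in KG1A. The difference between the lines, 0.32, missed the threshold (SE 0.18, edgeR adjusted p = 0.135).

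IQGAP3, a scaffold protein of proliferating cells, rose in both lines, and the difference of 0.17 between them missed the threshold (edgeR adjusted p = 0.0923). It had 238, 226, 227 and 238 CPM in the U937 NEL libraries, against 84.9, 83.1, 76.1 and 79.3 CPM in the U937 DMSO libraries. It had 55.9, 62.7, 56.7 and 58.1 CPM in the KG1A NEL libraries, against 19.4, 24.0, 22.4 and 25.4 CPM in the KG1A DMSO libraries. No NEL value overlapped a DMSO value in either line, and the log2 fold changes were 1.52 (SE 0.044, edgeR adjusted p = 1.62e-11) in U937 and 1.35 (SE 0.074, edgeR adjusted p = 9.11e-09) in KG1A. NEMP1, a protein of the inner nuclear membrane, rose by 0.92 in U937 and 0.84 in KG1A, and OAS3, an interferon-induced oligoadenylate synthetase, by 0.95 in U937 and 1.03 in KG1A. Neither of these differed between the lines at the threshold (U937 minus KG1A 0.080 for NEMP1 and -0.078 for OAS3).

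CDKN1A, the gene of the p21 inhibitor of cyclin-dependent kinases, rose in both lines and more in U937. It had 45.5, 33.8, 42.2 and 33.5 CPM in the U937 NEL libraries, against 7.95, 6.94, 7.72 and 7.28 CPM in the U937 DMSO libraries. It had 9.99, 7.96, 9.81 and 8.15 CPM in the KG1A NEL libraries, against 3.93, 2.31, 2.80 and 2.66 CPM in the KG1A DMSO libraries. The NEL libraries were the higher 4 in each line. The log2 fold changes were 2.37 (SE 0.12, edgeR adjusted p = 1.48e-09) in U937 and 1.62 (SE 0.16, edgeR adjusted p = 2.50e-06) in KG1A, and their difference was 0.75 (SE 0.23, edgeR adjusted p = 0.00815). ITGAX, which encodes the integrin chain CD11c, had 70.5, 67.3, 72.7 and 73.1 CPM in the U937 NEL libraries, against 4.39, 3.88, 4.27 and 3.51 CPM in the U937 DMSO libraries. It had 8.59, 8.60, 9.33 and 8.71 CPM in the KG1A NEL libraries, against 3.63, 3.36, 2.99 and 2.28 CPM in the KG1A DMSO libraries. Both lines separated by treatment, yet the change was 4.14 in U937 and 1.52 in KG1A, a difference of 2.62 (SE 0.16, edgeR adjusted p = 6.90e-11). The additive value of 3.12 lies nearer to U937, where ITGAX had more counts.

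The other genes named for the size of their shared rise had these changes. ALOX5AP, the protein that lets arachidonate lipoxygenase start leukotriene synthesis, rose by 1.73 in U937 and 1.46 in KG1A. MFGE8, a secreted protein that links phosphatidylserine on dying cells to integrins, rose by 1.58 in U937 and 1.88 in KG1A. MDGA1, a membrane-anchored adhesion protein, rose by 1.62 in U937 and 1.86 in KG1A, and DACT3, a regulator of Wnt signalling, by 1.40 in U937 and 1.82 in KG1A. TP53INP2, a regulator of autophagy, rose by 1.52 in U937 and 1.61 in KG1A, and GPR137C, a membrane protein, by 1.85 in U937 and 1.77 in KG1A. For all 6 the U937 minus KG1A difference missed the threshold, with values between -0.41 and 0.28. Their levels were low in places: MFGE8 averaged 83.0 ± 7.39 CPM in U937 with NEL and 27.8 ± 3.49 CPM in U937 with DMSO, and 10.6 ± 1.81 CPM in KG1A with NEL and 2.89 ± 0.459 CPM in KG1A with DMSO (SD, n = 4 each).

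Genes that fell in both lines were led in steadiness by H1-10, a linker histone, GTDC1, a glycosyltransferase-like protein, and APRT, the purine salvage enzyme that turns adenine into AMP. H1-10 (GRCh37 chr3:129033615-129035120) had 43.8, 40.6, 46.8 and 47.5 CPM in the U937 NEL libraries, against 109.7, 96.6, 106 and 95.9 CPM in the U937 DMSO libraries. It had 57.9, 54.3, 57.9 and 59.8 CPM in the KG1A NEL libraries, against 142, 125, 153 and 135 CPM in the KG1A DMSO libraries. Every NEL library was below every DMSO library, and the log2 fold changes were -1.20 (SE 0.063, edgeR adjusted p = 2.80e-09) in U937 and -1.27 (SE 0.060, edgeR adjusted p = 3.23e-09) in KG1A. The antisense transcript H1-10-AS1 fell alongside it, by 1.04 in U937 and 1.10 in KG1A. How strand was treated in the counting is not given in the sources used here, so reads of this pair cannot be told apart.

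APRT (GRCh37 chr16:88875747-88878352) had 27.5, 25.4, 25.9 and 26.5 CPM in the U937 NEL libraries, against 60.0, 55.8, 57.3 and 49.3 CPM in the U937 DMSO libraries. It had 31.0, 27.2, 27.1 and 28.2 CPM in the KG1A NEL libraries, against 61.2, 53.7, 61.2 and 57.6 CPM in the KG1A DMSO libraries. Its level was thus similar in both lines under either treatment, and the changes were -1.08 (SE 0.067, edgeR adjusted p = 1.20e-08) in U937 and -1.04 (SE 0.062, edgeR adjusted p = 2.33e-08) in KG1A. GTDC1 had 15.5, 15.7, 14.3 and 15.6 CPM in the U937 NEL libraries, against 32.2, 29.5, 28.3 and 29.6 CPM in the U937 DMSO libraries. It had 33.0, 33.9, 32.7 and 30.1 CPM in the KG1A NEL libraries, against 69.6, 62.7, 66.4 and 65.8 CPM in the KG1A DMSO libraries. The groups did not overlap, with changes of -0.97 in U937 and -1.03 in KG1A. TRDMT1, a methyltransferase of transfer RNA, fell most among the genes with at least 5 CPM that were ranked by the smaller of their 2 changes, -1.52 in U937 and -1.41 in KG1A. MFSD3, a member of a transporter family, changed by -1.23 in U937 and -1.13 in KG1A, and PPP3CB, a catalytic subunit of calcineurin, by -0.75 in U937 and -0.95 in KG1A. FDXACB1 changed by -1.56 in U937 and -0.90 in KG1A and FUNDC2 by -0.87 in U937 and -0.94 in KG1A.

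**Figure D2:**
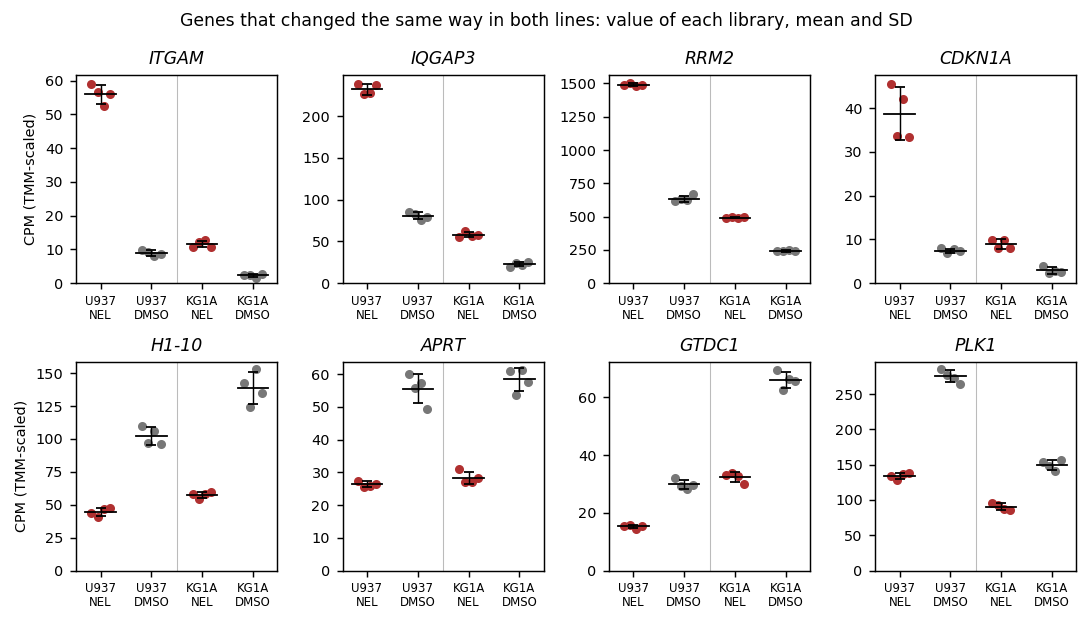
CPM of each library (points, NEL in red and DMSO in grey), with mean and SD (n = 4), for 8 genes named by the rule and called the same way in both lines. ITGAM, IQGAP3, RRM2 and CDKN1A sit higher with NEL in both lines, and H1-10, APRT, GTDC1 and PLK1 sit lower, with no overlap in any panel.

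Both subunits of ribonucleotide reductase given here, RRM2 and RRM1, rose in both lines, and so did SAMHD1. RRM2, the S-phase subunit, had 1489.9, 1504, 1479 and 1486 CPM in the U937 NEL libraries, against 616, 636, 621 and 667 CPM in the U937 DMSO libraries. It had 488, 497, 487 and 500.2 CPM in the KG1A NEL libraries, against 239, 239, 250.2 and 244 CPM in the KG1A DMSO libraries. The groups were far apart in each line, with changes of 1.23 (SE 0.038, edgeR adjusted p = 2.42e-11) in U937 and 1.02 (SE 0.033, edgeR adjusted p = 1.62e-10) in KG1A. The large subunit RRM1 had 313, 317, 308 and 319 CPM in the U937 NEL libraries, against 239.9, 239, 239 and 259 CPM in the U937 DMSO libraries. It had 249, 243, 257 and 251 CPM in the KG1A NEL libraries, against 133, 137, 140.4 and 139 CPM in the KG1A DMSO libraries. RRM1 rose less in U937 (0.36) than in KG1A (0.86), a difference of -0.50 (SE 0.049, edgeR adjusted p = 4.68e-08). SAMHD1, the deoxynucleotide triphosphatase, averaged 15.1 ± 1.03 CPM in U937 with NEL and 10.5 ± 0.774 CPM in U937 with DMSO, and 4.43 ± 0.387 CPM in KG1A with NEL and 2.72 ± 0.200 CPM in KG1A with DMSO (SD, n = 4 each). It rose by 0.52 in U937 and 0.70 in KG1A, and the difference missed the threshold (-0.18, edgeR adjusted p = 0.432).

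The shares to set beside every list below, over all genes tested, were 12.6% higher in both lines, 11.5% lower in both and 11.1% opposite. Of the 26 genes of deoxynucleotide synthesis and breakdown, all tested, 7 were higher in both lines (26.9%, against 12.6% of all genes), 2 were lower in both and 3 were opposite (6 with library number as a block). Other genes higher in both lines were TYMS, which makes thymidylate (0.23 in U937 and 0.66 in KG1A), the salvage kinase TK1 (0.34 in U937 and 1.17 in KG1A) and the nucleotidase NT5C2 (0.48 in U937 and 0.13 in KG1A). NT5C, a deoxynucleotidase, fell in both lines (-0.94 in U937 and -0.29 in KG1A), and DCTD, the deoxycytidylate deaminase, changed by -0.30 in U937 and -0.16 in KG1A. The equilibrative nucleoside transporter SLC29A1 was opposite, with -0.63 in U937 and 0.25 in KG1A, and so was the pyrophosphatase DCTPP1, with -0.82 in U937 and 0.43 in KG1A. The median over the list was 0.098 in U937 and 0.15 in KG1A.

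Genes of the replication origin and fork rose together in KG1A, and in U937 they went both ways at shares near those of all genes. Of 39 such genes, all tested, 36 were higher in KG1A at an edgeR adjusted p under 0.05, against 23.8% of all genes tested. In U937 15 were higher and 13 lower, where 34.5% of all genes tested were higher and 35% lower. Those 15 were higher in both lines (38.5%, against 12.6% of all genes tested) and 11 were opposite (28.2%, against 11.1%). Licensing and initiation factors were among the shared ones, with ORC1 changing by 0.55 in U937 and 0.67 in KG1A, CDC6 by 0.19 in U937 and 1.12 in KG1A and CDT1 by 0.58 in U937 and 0.75 in KG1A. POLD3, a subunit of DNA polymerase delta, averaged 130.1 ± 4.50 CPM in U937 with NEL and 73.6 ± 4.39 CPM in U937 with DMSO, and 180.4 ± 8.87 CPM in KG1A with NEL and 93.8 ± 4.85 CPM in KG1A with DMSO (SD, n = 4 each), a change of 0.82 in U937 and 0.94 in KG1A. The helicase subunits MCM2 (-0.18 in U937 and 0.12 in KG1A) and MCM7 (-0.48 in U937 and 0.16 in KG1A), the sliding clamp PCNA (-0.23 in U937 and 0.39 in KG1A) and the flap endonuclease FEN1 (-0.26 in U937 and 0.70 in KG1A) were opposite. The list's median was -0.0076 in U937 and 0.61 in KG1A, and the U937 median turned to 0.026 with upper quartile factors and to 0.050 on log2(RPKM + 0.5).

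Of 34 tested genes of recombination, the Fanconi pathway and the checkpoint, 15 were higher in both lines (44.1%, against 12.6% of all genes), 1 was lower and 4 were opposite (11.8%, against 11.1%). The opposite ones were 7 with library number as a block, and 2 without library 2 of U937 with DMSO or without library 3 of U937 with NEL. FANCI, which with FANCD2 marks stalled forks for repair, averaged 442 ± 8.99 CPM in U937 with NEL and 269 ± 5.66 CPM in U937 with DMSO, and 328 ± 7.79 CPM in KG1A with NEL and 181 ± 8.05 CPM in KG1A with DMSO (SD, n = 4 each), and rose by 0.71 in U937 and 0.86 in KG1A. The nuclease EXO1 (0.92 in U937 and 1.21 in KG1A), the recombinase partner RAD51AP1 (0.80 in U937 and 1.04 in KG1A) and the helicase BRIP1 (0.76 in U937 and 0.84 in KG1A) rose in both lines. BRCA1 rose less in U937 (0.20) than in KG1A (0.92), a difference of -0.71 (edgeR adjusted p = 1.19e-08). WEE1, the kinase that holds back mitotic entry, fell in both lines (-0.46 in U937 and -0.17 in KG1A). The checkpoint kinases CHEK1 (-0.16 in U937 and 0.37 in KG1A) and CHEK2 (-0.21 in U937 and 0.43 in KG1A) were opposite.

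Within the G1/S list CCNE2 and several E2F genes rose in both lines. Of 17 tested genes of the G1/S switch, 7 were higher in both lines (41.2%), 1 was lower and 4 were opposite. CCNE2, which encodes cyclin E2, averaged 148 ± 5.98 CPM in U937 with NEL and 68.1 ± 2.40 CPM in U937 with DMSO, and 202 ± 9.68 CPM in KG1A with NEL and 66.7 ± 2.91 CPM in KG1A with DMSO (SD, n = 4 each), with changes of 1.12 in U937 and 1.60 in KG1A. CCNE1 rose by 0.38 in U937 and 1.49 in KG1A, E2F8 by 0.87 in U937 and 1.29 in KG1A, E2F2 by 0.30 in U937 and 1.03 in KG1A, E2F1 by 0.24 in U937 and 0.70 in KG1A and CDK2 by 0.41 in U937 and 0.57 in KG1A. RB1 rose more in U937 (0.67) than in KG1A (0.27), with an edgeR adjusted p of 2.37e-06 for the difference, and CDC25A was opposite (-0.36 in U937 and 0.95 in KG1A). E2F5, the single member lower in both lines, changed by -0.24 in U937 and -0.29 in KG1A, and in the odd-numbered libraries alone its additive change of -0.19 missed the threshold (edgeR adjusted p = 0.0604).

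Genes of G2 and mitosis moved in both directions. Of the 40, 12 were lower in both lines (30%, against 11.5% of all genes), 7 were higher in both (17.5%) and 3 were opposite (7 with library number as a block). In U937 9 were higher and 21 lower, where 34.5% of all genes tested were higher and 35% lower. In KG1A 16 were higher and 13 lower, where 23.8% of all genes tested were higher and 23.5% lower. The medians were -0.15 in U937 and 0.061 in KG1A. PLK1, a kinase that drives mitotic entry and exit, had 134, 129, 137 and 138 CPM in the U937 NEL libraries, against 286, 277, 273 and 265 CPM in the U937 DMSO libraries. It had 95.7, 93.5, 87.7 and 85.5 CPM in the KG1A NEL libraries, against 153, 149, 141 and 157 CPM in the KG1A DMSO libraries. Each NEL library was below each DMSO library of its line, and PLK1 changed by -1.04 (SE 0.041, edgeR adjusted p = 2.02e-10) in U937 and -0.73 (SE 0.048, edgeR adjusted p = 6.30e-08) in KG1A. The mitotic kinesin KIF20A changed by -1.32 in U937 and -0.84 in KG1A, CDC20, an activator of the anaphase-promoting complex, by -1.44 in U937 and -0.75 in KG1A, the kinetochore motor CENPE by -0.71 in U937 and -0.69 in KG1A and CCNB1 by -0.92 in U937 and -0.15 in KG1A. The genes higher in both lines were CDK1 (0.36 in U937 and 0.34 in KG1A), CDC25B (0.36 in U937 and 0.28 in KG1A), AURKB (0.37 in U937 and 0.71 in KG1A), NDC80 (0.26 in U937 and 0.32 in KG1A), TOP2A (0.40 in U937 and 0.15 in KG1A), MYBL2 (0.45 in U937 and 1.20 in KG1A) and ANLN (0.39 in U937 and 0.35 in KG1A). Expression in bulk RNA does not tell fewer cells in a phase from less RNA per cell.

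Of the cyclin-dependent kinase inhibitors and D cyclins with their kinases, 10 were tested. In both lines 3 were higher (30%, against 12.6% of all genes) and 3 lower (30%, against 11.5%), and 2 were opposite (20%, against 11.1%). CDKN1A led the higher ones, followed by CDKN2D (1.30 in U937 and 0.37 in KG1A). CDKN1B, the gene of p27, fell in both lines (-0.62 in U937 and -0.22 in KG1A), as did the D cyclin CCND2 (-0.85 in U937 and -0.10 in KG1A) and the kinase CDK6 (-0.099 in U937 and -0.38 in KG1A). Of the 24 tested p53 target genes, 5 were higher in both lines (20.8%, against 12.6%), 1 was lower and 4 were opposite. Beside CDKN1A the shared members were TP53INP1 (0.97 in U937 and 1.30 in KG1A), the nucleotide excision repair gene DDB2 (1.15 in U937 and 0.51 in KG1A), the death receptor FAS (0.92 in U937 and 0.48 in KG1A) and GADD45A (0.49 in U937 and 0.43 in KG1A). BAX was opposite (-0.23 in U937 and 0.29 in KG1A), and XPC fell in both (-0.24 in U937 and -0.22 in KG1A).

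Among part of the named genes, whatever their list, promoter sequences of RefSeq (GRCh38.p14, a build other than that of the counts) are printed for the 3 genes named as higher in both lines and the single gene named as lower, of smallest additive p, that hold an E2F or an E-box word within 250 bases before the start. The other named genes were left out before their promoters were considered. CCNE2 was among those left out, with an additive edgeR adjusted p of 3.53e-10, against 1.27e-09 for MFGE8. The E2F words were TTTCCCGC, TTTCGCGC, TTTGCCGC and TTTGGCGC and the E-box word was CACGTG, on either strand, and they are in capitals below. An E2F word stood in 2.79% and an E-box word in 6.49% of all 27305 RefSeq promoters of this length.
NEMP1, chr12:57078792-57079041, minus strand: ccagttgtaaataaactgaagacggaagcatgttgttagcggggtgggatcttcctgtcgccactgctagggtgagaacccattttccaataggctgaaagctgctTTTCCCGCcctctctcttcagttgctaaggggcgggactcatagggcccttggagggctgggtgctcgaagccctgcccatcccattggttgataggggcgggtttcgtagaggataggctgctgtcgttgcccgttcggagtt
OAS3, chr12:112938224-112938473, plus strand: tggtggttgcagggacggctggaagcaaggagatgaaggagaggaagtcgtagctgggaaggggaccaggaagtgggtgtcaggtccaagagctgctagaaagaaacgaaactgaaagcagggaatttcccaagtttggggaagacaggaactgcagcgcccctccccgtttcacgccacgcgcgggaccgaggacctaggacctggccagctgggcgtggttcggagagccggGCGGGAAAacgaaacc
MFGE8, chr15:88913380-88913629, minus strand: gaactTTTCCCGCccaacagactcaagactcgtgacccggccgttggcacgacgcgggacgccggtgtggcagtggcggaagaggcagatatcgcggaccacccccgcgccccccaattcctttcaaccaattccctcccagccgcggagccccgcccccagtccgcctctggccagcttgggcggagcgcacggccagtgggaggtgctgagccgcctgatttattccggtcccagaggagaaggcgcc
PLK1, chr16:23678639-23678888, plus strand: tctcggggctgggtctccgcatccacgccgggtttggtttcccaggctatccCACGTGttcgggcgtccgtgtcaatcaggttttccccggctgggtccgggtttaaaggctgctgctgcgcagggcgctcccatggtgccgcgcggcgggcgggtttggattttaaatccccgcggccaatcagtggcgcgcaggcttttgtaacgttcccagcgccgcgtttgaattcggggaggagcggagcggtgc
The E2F word starts 144 bases before the start in NEMP1, 16 bases before it in OAS3 and 245 bases before it in MFGE8, and the E-box word of PLK1 starts 198 bases before its start. The bases that follow the start were found in an annotated transcript of the gene for OAS3, MFGE8 and PLK1. For NEMP1 they were not, so its distance is less certain. Of the 35 replication genes that matched a promoter, 11 (31.4%) held an E2F word. Promoters matched 76.6% of the genes higher and 79.0% of the genes lower in both lines, under the 80% required, so shares over those sets are void and not given. The CHR word TTTGAA, known from genes of late cell cycle and left in lower case, stood in 18 of the 33 promoters matched to G2 and mitosis genes and in 13.6% of all RefSeq promoters. A match describes letters and not a bound site.

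The shared fall that took the largest share of any list was that of the cytosolic ribosomal proteins. Of 78 genes tested, 52 were lower in both lines (66.7%, against 11.5% of all genes), the other 26 were called in at most 1 line, and the medians were -0.30 in U937 and -0.37 in KG1A. In the additive model 69 were lower and 1 was higher, where 27.7% of all genes tested were lower and 26.8% higher. RPS15, a protein of the small subunit, averaged 198 ± 7.69 CPM in U937 with NEL and 317 ± 17.2 CPM in U937 with DMSO, and 229 ± 11.4 CPM in KG1A with NEL and 349 ± 16 CPM in KG1A with DMSO (SD, n = 4 each), and changed by -0.68 (SE 0.047, edgeR adjusted p = 2.96e-08) in U937 and -0.60 (SE 0.044, edgeR adjusted p = 1.56e-07) in KG1A. RPL3 changed by -0.13 in U937 and -0.32 in KG1A and RPL5 by -0.19 in U937 and -0.53 in KG1A. Ribosomal protein genes have many near-identical pseudogenes, which makes the count of each gene uncertain.

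Ribosome biogenesis genes fell in both lines too, and further in U937. Of 37 tested, 20 were lower in both lines (54.1%) and 1 was opposite, and the medians were -1.12 in U937 and -0.16 in KG1A. On log2(RPKM + 0.5) with limma-trend, 12 were lower in both lines. The difference between the lines was called in all 37, against 58.5% of all genes tested. HEATR1, a factor of ribosomal RNA transcription, averaged 200.2 ± 5.71 CPM in U937 with NEL and 329 ± 9.68 CPM in U937 with DMSO, and 148 ± 5.82 CPM in KG1A with NEL and 182 ± 3.35 CPM in KG1A with DMSO (SD, n = 4 each), with changes of -0.72 in U937 and -0.30 in KG1A. Nucleolin (NCL) changed by -1.15 in U937 and -0.44 in KG1A, fibrillarin (FBL) by -0.74 in U937 and -0.31 in KG1A and the RNA polymerase I subunit POLR1B by -1.50 in U937 and -0.22 in KG1A. MYC, a transcription factor known to drive this programme, had 84.8, 78.0, 84.6 and 81.1 CPM in the U937 NEL libraries, against 452, 442, 458 and 446 CPM in the U937 DMSO libraries. It had 548, 546, 538 and 524 CPM in the KG1A NEL libraries, against 752, 748, 715 and 734 CPM in the KG1A DMSO libraries. The libraries separated by treatment in both lines, with changes of -2.46 (SE 0.041, edgeR adjusted p = 2.11e-13) in U937 and -0.45 (SE 0.035, edgeR adjusted p = 2.76e-07) in KG1A and a difference of -2.00 (SE 0.048, edgeR adjusted p = 1.32e-16). Of the 13 small nucleolar RNA host genes 6 were lower in both lines (3 on log2(RPKM + 0.5)) and 2 were opposite, and SNHG3 changed most steadily, by -1.35 in U937 and -0.92 in KG1A. NPM1, a nucleolar chaperone counted here among stem and progenitor genes, changed by -0.85 in U937 and -0.39 in KG1A.

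Mitochondrial gene groups fell in a smaller share of members. Of 51 mitochondrial ribosomal proteins, 12 were lower in both lines (23.5%), 1 was higher and 4 were opposite, with medians of -0.49 in U937 and -0.036 in KG1A. The KG1A median was 0.022 on log2(RPKM + 0.5), and the opposite genes were 2 with upper quartile factors and 2 without library 1, 3 or 4 of KG1A with DMSO or library 2 or 4 of KG1A with NEL. MRPS28 changed by -1.22 in U937 and -0.75 in KG1A, and MRPS6, the member higher in both, by 0.74 in U937 and 0.39 in KG1A. Of 48 tested nuclear-encoded genes of the respiratory chain, 16 were lower in both lines (33.3%), 1 was higher and 1 was opposite (5 with library number as a block). NDUFB6, a subunit of complex I, averaged 10.4 ± 1.03 CPM in U937 with NEL and 18.1 ± 1.33 CPM in U937 with DMSO, and 9.27 ± 0.487 CPM in KG1A with NEL and 14.5 ± 1.44 CPM in KG1A with DMSO (SD, n = 4 each), a change of -0.80 in U937 and -0.65 in KG1A. COX7C changed by -0.35 in U937 and -0.45 in KG1A, while SDHA of complex II rose by 0.40 in U937 and 0.15 in KG1A. In the same libraries the share of counts from mitochondrially encoded genes was 5.89% to 7.29% in U937 with NEL, 7.09% to 9.33% in U937 with DMSO, 7.34% to 9.94% in KG1A with NEL and 8.24% to 10.4% in KG1A with DMSO, and its part in these changes was not tested.

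Of the 17 genes of de novo purine and pyrimidine synthesis, 5 were lower in both lines (29.4%), 1 was higher and 4 were opposite, and on log2(RPKM + 0.5) 1 was lower in both. DHODH, the mitochondrial enzyme of pyrimidine synthesis, changed by -0.93 in U937 and -0.52 in KG1A, GART by -0.53 in U937 and -0.19 in KG1A and IMPDH2, the rate-limiting enzyme of guanine nucleotide synthesis, by -0.49 in U937 and -0.13 in KG1A. PRPS2, which makes the ribose phosphate donor, rose by 0.27 in U937 and 0.41 in KG1A. UMPS (-1.23 in U937 and 0.17 in KG1A), CTPS1 (-0.79 in U937 and 0.28 in KG1A) and CAD (-0.23 in U937 and 0.21 in KG1A) were opposite.

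**Figure D3:**
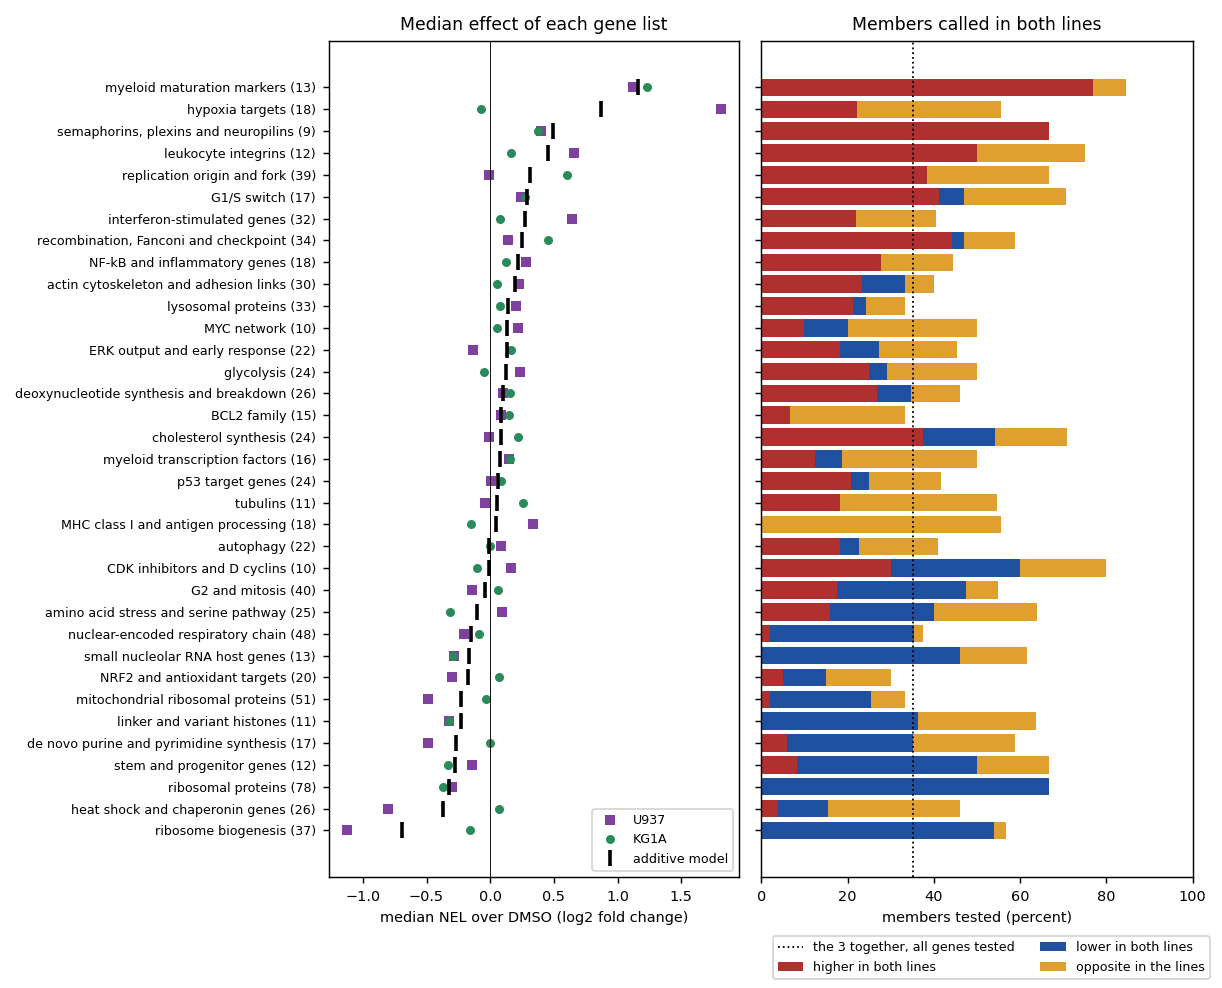
Left, median log2 fold change of NEL over DMSO for each gene list with at least 9 tested members, in U937, in KG1A and in the additive model (tested members in brackets). Right, the share of tested members called higher in both lines, lower in both or in opposite directions. Ribosomal proteins have 52 of 78 members lower in both lines, and hypoxia targets have a U937 median of 1.81 against a KG1A median of -0.073.

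Most of the myeloid maturation markers that could be tested rose in both lines. Of 41 such genes only 13 met the level rule in both lines, and a gene could meet it through its NEL group, so the following is a description of those 13. Of them 10 were higher in both lines and 1 was opposite, with medians of 1.12 in U937 and 1.23 in KG1A. Beside ITGAM and ITGAX they were the complement receptor C5AR1 (2.67 in U937 and 2.32 in KG1A), the chemokine receptors CCR1 (1.39 in U937 and 1.11 in KG1A), CCR2 (1.62 in U937 and 1.23 in KG1A) and CXCR2 (0.90 in U937 and 2.22 in KG1A), and the Fc receptor genes FCGR2A (0.90 in U937 and 1.70 in KG1A) and FCER1G (1.12 in U937 and 1.42 in KG1A). CSF3R, the receptor of granulocyte colony-stimulating factor, rose by 0.89 in U937 and 0.36 in KG1A, and ITGB2, the beta chain that pairs with CD11b and CD11c, by 0.71 in U937 and 0.16 in KG1A. Several of these were near the limit of counting in KG1A: C5AR1 averaged 10.8 ± 2.69 CPM in U937 with NEL and 1.68 ± 0.270 CPM in U937 with DMSO, and 2.34 ± 0.580 CPM in KG1A with NEL and 0.460 ± 0.280 CPM in KG1A with DMSO (SD, n = 4 each). CD83 was opposite (-0.32 in U937 and 0.90 in KG1A).

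Of the 12 tested leukocyte integrins, 6 were higher in both lines (50%, against 12.6% of all genes) and 3 were opposite (25%, against 11.1%). ITGB7 rose by 2.74 in U937 and 0.84 in KG1A, ITGB1 by 0.61 in U937 and 0.21 in KG1A and ITGAE by 0.51 in U937 and 0.39 in KG1A, while ITGA4 (0.24 in U937 and -0.24 in KG1A), ITGA5 (-0.41 in U937 and 0.11 in KG1A) and ITGAV (0.57 in U937 and -0.15 in KG1A) were opposite. Of 9 tested semaphorins, plexins and neuropilins 6 were higher in both lines, PLXND1 by 0.41 in U937 and 0.58 in KG1A and SEMA7A by 0.51 in U937 and 0.70 in KG1A. Lysosomal proteins counted 7 of 33 higher in both lines (21.2%) and 1 lower (11 higher with library number as a block), with progranulin (GRN) rising by 0.66 in U937 and 0.38 in KG1A and cathepsin S (CTSS) by 0.51 in U937 and 0.70 in KG1A.

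The share of myeloid transcription factors higher in both lines was near that of all genes. Of 16 tested, 2 (12.5%, against 12.6%) were higher in both lines, CEBPB (0.81 in U937 and 0.36 in KG1A) and ID2 (0.51 in U937 and 0.31 in KG1A), 1 was lower, RUNX1 (-0.16 in U937 and -0.29 in KG1A), and 5 were opposite (31.2%, against 11.1%). On log2(RPKM + 0.5) 4 were higher in both, and the opposite ones were 2 in the even-numbered libraries alone, 3 without library 1 of KG1A with DMSO and 3 without library 3 of KG1A with NEL. CEBPA (-0.73 in U937 and 0.60 in KG1A), GFI1 (-0.90 in U937 and 0.23 in KG1A) and EGR1 (-1.22 in U937 and 0.58 in KG1A) were lower in U937 and higher in KG1A, and GATA2 (0.46 in U937 and -0.42 in KG1A) was lower in KG1A. Of 12 tested stem and progenitor genes, 5 were lower in both lines, among them HOXA7 (-0.69 in U937 and -0.47 in KG1A), HOXA10 (-0.58 in U937 and -0.21 in KG1A) and LMO2 (-0.31 in U937 and -0.37 in KG1A). BAALC rose in both (1.80 in U937 and 0.40 in KG1A), at 1.37 ± 0.516 CPM in U937 with NEL and 0.385 ± 0.0479 CPM in U937 with DMSO. It met the level rule in U937 only through its NEL group, so its rise there is a description. Its additive change missed the threshold in the odd-numbered libraries alone (0.51, edgeR adjusted p = 0.0574).

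Interferon and NF-kB genes rose in part in both lines, and MHC class I genes split by line. Of 32 tested interferon-stimulated genes, 7 were higher in both lines (21.9%) and 6 were opposite. The higher ones were 3 without library 2 of KG1A with NEL and 4 without its library 3. OAS3 had 99.3, 100.4, 101 and 98.5 CPM in the U937 NEL libraries, against 53.6, 48.7, 51.6 and 52.6 CPM in the U937 DMSO libraries. It had 79.3, 81.3, 78.1 and 81.5 CPM in the KG1A NEL libraries, against 40.9, 42.3, 36.9 and 36.6 CPM in the KG1A DMSO libraries. Its groups did not overlap, and its neighbour in function OAS1 rose by 0.84 in U937 and 0.89 in KG1A. ISG20 (1.73 in U937 and 0.64 in KG1A), STAT2 (1.51 in U937 and 0.17 in KG1A) and HERC5 (0.39 in U937 and 0.81 in KG1A) also rose in both, whereas IFIT2 (-0.78 in U937 and 0.59 in KG1A) and TRIM22 (3.33 in U937 and -0.25 in KG1A) were opposite. Of 18 tested NF-kB and inflammatory genes 5 were higher in both lines (8 on log2(RPKM + 0.5)), BIRC3 by 1.42 in U937 and 0.69 in KG1A, the inhibitor TNFAIP3 by 1.32 in U937 and 0.55 in KG1A and NFKB2 by 1.14 in U937 and 0.45 in KG1A. Of 18 tested genes of MHC class I and antigen processing 10 were opposite (55.6%, against 11.1% of all genes) and the other 8 were called in at most 1 line. B2M (0.55 in U937 and -0.17 in KG1A) and PSMB9 (0.91 in U937 and -0.22 in KG1A) were higher in U937 and lower in KG1A.

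More hypoxia targets and glycolysis genes were called higher in U937, 17 of 18 and 17 of 24, than in KG1A, 4 of 18 and 7 of 24, and 17 of the 18 hypoxia targets differed between the lines. Of all genes tested 34.5% were higher in U937, 23.8% were higher in KG1A and 58.5% differed between the lines. The KG1A counts of both lists were thus near the share of all genes. Of 18 tested hypoxia targets 15 were higher in the additive model, against 26.8% of all genes tested. Yet 4 were higher in both lines and 6 were opposite, and the medians were 1.81 in U937 and -0.073 in KG1A. Those higher in both were 2 without library 1 of KG1A with DMSO and 2 without library 2 of KG1A with NEL. BHLHE40 rose by 1.77 in U937 and 0.41 in KG1A and ADM by 4.02 in U937 and 0.39 in KG1A, and VEGFA (0.88 in U937 and -0.49 in KG1A) and DDIT4 (1.82 in U937 and -0.26 in KG1A) were opposite. Of 24 glycolysis genes 6 were higher in both lines, with ALDOC at 2.15 in U937 and 0.66 in KG1A, and 5 were opposite, with LDHA at 0.39 in U937 and -0.29 in KG1A. Those higher in both were 3 without library 2 of KG1A with DMSO and 2 in the odd-numbered libraries alone, and the opposite ones were 8 with library number as a block. Of 24 tested cholesterol genes 9 were higher in both lines (37.5%), 4 were lower and 4 were opposite. The enzymes named next were on the higher side, with MVD at 0.48 in U937 and 0.43 in KG1A, HMGCS1 at 0.54 in U937 and 0.23 in KG1A and IDI1 at 0.81 in U937 and 0.33 in KG1A, and the lower side included INSIG1 (-0.79 in U937 and -0.16 in KG1A), SREBF1 (-0.52 in U937 and -0.25 in KG1A) and TM7SF2 (-0.73 in U937 and -0.38 in KG1A).

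In the amino acid stress and serine list, 6 of 25 tested genes were lower in both lines (24%, against 11.5% of all genes). In the same list 4 were higher (16%, against 12.6%) and 6 were opposite (24%, against 11.1%). The opposite ones were 3 without library 2 of U937 with NEL. ATF4, the transcription factor of this response, changed by -0.37 in U937 and -0.54 in KG1A and the amino acid transporters SLC7A5 by -1.23 in U937 and -0.51 in KG1A and SLC7A1 by -0.67 in U937 and -0.41 in KG1A. DDIT3 (0.95 in U937 and 0.50 in KG1A), TRIB3 (0.54 in U937 and 0.40 in KG1A) and WARS1 (0.96 in U937 and 0.57 in KG1A) rose in both lines. The serine synthesis enzymes PHGDH (0.44 in U937 and -0.56 in KG1A) and PSAT1 (0.12 in U937 and -0.81 in KG1A) were opposite. Of 26 tested heat shock and chaperonin genes 16 were lower in the additive model, against 27.7% of all genes tested. But 3 were lower in both lines (11.5%, against 11.5% of all genes). Those were 6 with library number as a block or in the odd-numbered libraries alone. In both lines 1 was higher, and 8 were opposite (30.8%, against 11.1%), with HSPH1 at -0.95 in U937 and 0.59 in KG1A and DNAJA1 at -1.44 in U937 and 0.38 in KG1A.

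The remaining lists gave these counts, to be read beside 12.6% higher in both lines, 11.5% lower in both and 11.1% opposite over all genes tested. Of 30 tested genes of the actin cytoskeleton and adhesion links 7 were higher in both lines (23.3%) and 3 were lower (11 and 5 with library number as a block, and in the even-numbered libraries alone), with CAPG at 0.61 in U937 and 0.54 in KG1A and ACTB at -0.45 in U937 and -0.40 in KG1A. CNN2 was the only gene called the same way in both lines and not in the additive model. Its changes were 0.20 in U937 and 2.87 in KG1A, and it averaged 1.65 ± 0.281 CPM in KG1A with NEL and 0.217 ± 0.0515 CPM in KG1A with DMSO (SD, n = 4 each). CNN2 thus met the level rule in KG1A only through its NEL group, and its rise there is a description. Of 22 autophagy genes 4 were higher in both lines, with WIPI1 at 1.41 in U937 and 0.72 in KG1A, and 1 was lower, ATG7 at -0.15 in U937 and -0.31 in KG1A, whose additive change missed the threshold in the even-numbered libraries alone (-0.24, edgeR adjusted p = 0.054). Of 22 ERK output and early response genes 4 were higher in both and 2 lower, with KLF10 at 0.94 in U937 and 0.34 in KG1A and IER2 at -0.26 in U937 and -0.31 in KG1A. The MYC network held MXD1, a partner of MAX that opposes MYC, at 1.42 in U937 and 0.36 in KG1A. Of 15 BCL2 family genes 1 was higher in both lines, BAD at 0.29 in U937 and 0.64 in KG1A, and 4 were opposite. Of 11 tubulins 2 were higher in both, with TUBA1A at 1.56 in U937 and 0.48 in KG1A, and 4 were opposite. Of 20 NRF2 and antioxidant targets 1 was higher in both, catalase (CAT) at 0.56 in U937 and 0.42 in KG1A, and 2 were lower (4 with library number as a block), with the ferritin light chain FTL at -0.45 in U937 and -0.27 in KG1A. Of 11 linker and variant histones 4 were lower in both lines, H1-10 among them, and 3 were opposite, and of 5 primary granule proteins 2 were higher in both, with SRGN at 0.69 in U937 and 0.38 in KG1A, and 1 was opposite. PPT1 was the lysosomal protein lower in both lines (-0.17 in U937 and -0.23 in KG1A). Of the lymphoid and erythroid markers, 4 were tested in all: CD79A was opposite (2.13 in U937 and -0.89 in KG1A), PAX5 rose in both lines (0.24 in U937 and 0.70 in KG1A), in the odd-numbered libraries alone without reaching the threshold (0.40, edgeR adjusted p = 0.0534), the transferrin receptor TFRC fell in both (-1.17 in U937 and -0.41 in KG1A), and EPOR, at -0.28 in U937 and -0.049 in KG1A, was called in U937.

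The 1404 genes called in opposite directions, 663 higher in KG1A and 741 higher in U937, mark where the average does not stand for either line. PPP1R32 had 7.33, 6.93, 6.56 and 6.55 CPM in the U937 NEL libraries, against 2.92, 2.79, 2.00 and 2.25 CPM in the U937 DMSO libraries. It had 4.86, 5.31, 5.24 and 4.40 CPM in the KG1A NEL libraries, against 10.6, 11.1, 10.2 and 10.6 CPM in the KG1A DMSO libraries. With a change of 1.45 (SE 0.14, edgeR adjusted p = 8.83e-07) in U937 and -1.10 (SE 0.10, edgeR adjusted p = 1.75e-06) in KG1A, its additive value was 0.024. BTN3A1, a butyrophilin that presents phosphoantigens to gamma-delta T cells, had 25.8, 27.2, 24.7 and 26.1 CPM in the U937 NEL libraries, against 9.87, 11.2, 12.2 and 10.9 CPM in the U937 DMSO libraries. It had 25.8, 25.1, 24.4 and 26.8 CPM in the KG1A NEL libraries, against 43.1, 42.0, 46.5 and 40.9 CPM in the KG1A DMSO libraries. The treated libraries of the 2 lines thus reached similar levels of BTN3A1. CCDC26, a non-coding RNA gene, changed by 1.82 in U937 and -0.70 in KG1A, and LDLRAD4, an inhibitor of TGF-beta signalling, by 0.81 in U937 and -0.99 in KG1A.

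On the other side, ANKLE1, a nuclease, had 71.3, 65.4, 77.0 and 72.5 CPM in the U937 NEL libraries, against 137, 127, 146 and 128 CPM in the U937 DMSO libraries. It had 7.10, 8.51, 8.76 and 5.06 CPM in the KG1A NEL libraries, against 2.06, 2.31, 2.60 and 3.51 CPM in the KG1A DMSO libraries. The fall in U937 was 0.91 and the rise in KG1A 1.48, and the additive value of -0.22 was not called (edgeR adjusted p = 0.516). The mean of the 2 line effects in a single model of the 4 groups was 0.29 instead, with an edgeR adjusted p of 0.0208. SLAMF8, a receptor of myeloid cells, changed by -1.47 in U937 and 0.93 in KG1A, F2RL3, a thrombin receptor, by -1.33 in U937 and 0.92 in KG1A, and GPR84, a receptor of medium-chain fatty acids, by -0.89 in U937 and 1.13 in KG1A. In each of these 8 genes the line with the lower DMSO level was the one that rose. Over all 1404 opposite genes this held in 1121 (79.8%) and failed in 283, while KG1A had the lower DMSO level in 50.3% of them and in 52.4% of all genes tested. The DMSO libraries enter both the level and the change, so this is a description.

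**Figure D4:**
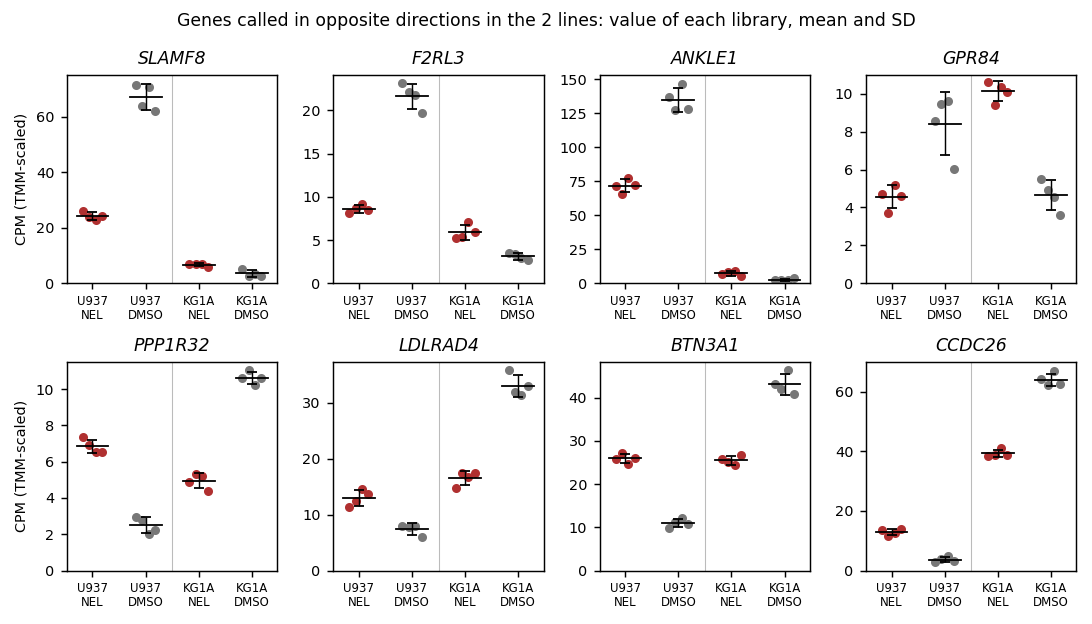
CPM of each library (points, NEL in red and DMSO in grey), with mean and SD (n = 4), for the 4 genes that rose in KG1A (upper row) and the 4 that rose in U937 (lower row) with the largest opposite change among those with at least 5 CPM in the higher group of each line and no overlap in either. In each panel NEL and DMSO libraries separate in both lines, in opposite directions.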

How the data were processed

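Polyadenylated RNA of 16 samples of KG1A and U937 cells was made into stranded libraries with a Kapa kit, per the labels' protocols. The deposited counts are whole reads per gene; bcl2fastq 2.18.0.12, TopHat2, HTSeq 0.11.2 and hg19/GRCh37 are named, per the submitters' processing notes. The RPKM values, which the authors deposited beside the counts, entered alternatives only. For annotation and strand setting, the sources used here give nothing. A symbol was matched to 32562 of 34618 gene IDs, and 0 columns belonged to no sample.

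Counts were fitted with edgeR 4.0.16 (quasi-likelihood, TMM factors) in R 4.3.3, as an additive model of line and treatment over 16 libraries, a treatment model in each line over 8, and a line by treatment model over 16. Benjamini-Hochberg adjusted p-values cover all 12642 genes tested. CPM are counts divided by a library size in units of 1000000 counts. The level rule used the totals of all genes, and printed CPM the totals of tested genes, TMM-scaled over all 16 libraries. The SE is the absolute log2 fold change divided by the square root of the F statistic. Intervals and the 3-count floor cover counting error only. The procedure was tested on simulated data. That simulation drew each library independently, without the split into odd and even libraries, so it cannot show how that split affects the p-values. Alternatives used DESeq2 1.42.0, limma 3.58.1, other scalings, filters and thresholds, left-out libraries, library sets and the replicate block. Python 3.11.15 and matplotlib 3.10.9 made the figures.

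Named genes are the 10 largest and the 5 of smallest additive p each way among genes called the same way in both lines with no overlap and at least 5 CPM, the 4 largest opposite each way, 6 set genes (RRM1, RRM2, SAMHD1, ITGAM, CDKN1A and MYC) and the called member of smallest additive p each way in 40 gene lists, 84 in all, of which 1 is not reported here. Other members given as examples were chosen with their values seen. The members and lists were chosen with earlier results of these data known.

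Libraries of the same number deviated together across groups, with correlations of 0.286 to 0.370 over 11848 genes, every one above 0.1. The numbers were therefore taken to pair the libraries in the block. Other libraries of the same parity gave 0.285 to 0.401 and those of other parity -0.397 to -0.278. These values show the odd and even sets but cannot tell pairing by number from pairing by set. No 2 libraries agreed within sampling noise: chi-square per gene was 1.26 to 1.98 between libraries of the same parity in a group and 3.88 to 8.47 otherwise.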

Additional observations from a re-analysis of the deposited data

Results flagged for a closer look

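In 13 of the 332 groups of 4 libraries of the 83 named genes given here, 1 library stood apart from the other 3, by Dixon's 95% criterion for groups of 4. Chance marks about 1 in 20 such groups, so this number is not above what chance gives. ITGAX was highest at 9.33 CPM in library 3 of KG1A with NEL, and GTDC1 was lowest at 14.3 CPM in library 3 of U937 with NEL. KIF20A was lowest at 46.0 CPM in library 4 of U937 with NEL, and SLAMF8 was lowest at 5.81 CPM in library 4 of KG1A with NEL. LDLRAD4 was lowest at 5.93 CPM in library 4 of U937 with DMSO, and CCDC26 was highest at 41.2 CPM in library 3 of KG1A with NEL. RRM1 was highest at 259 CPM in library 4 of U937 with DMSO, and CCNE2 was highest at 71.0 CPM in library 3 of KG1A with DMSO. ID2 was lowest at 74.6 CPM in library 4 of U937 with NEL, and RUNX1 was lowest at 78.4 CPM in library 2 of U937 with NEL. BAALC was highest at 0.457 CPM in library 1 of U937 with DMSO, and BHLHE40 was highest at 103 CPM in library 1 of U937 with DMSO. DHODH was lowest at 9.71 CPM in library 3 of KG1A with NEL. The NEL effect was called in 51 of the 83 named genes given here as different between the lines, and the difference missed the threshold in the other 32 (edgeR quasi-likelihood test of the line by treatment term over all 12642 genes). 

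In U937 minus KG1A on the log2 scale, the genes that rose in both lines and more in U937 were ITGAX (2.62), ALDOC (1.50), BAALC (1.40), BHLHE40 (1.37), TUBA1A (1.09), MXD1 (1.06), CDKN1A (0.75), BIRC3 (0.73), WIPI1 (0.69), KLF10 (0.60), WARS1 (0.39), MRPS6 (0.35), SRGN (0.32), GRN (0.28), SDHA (0.26), RRM2 (0.21) and ID2 (0.20). Those that rose in both lines and more in KG1A were RRM1 (-0.50), CCNE2 (-0.48), PAX5 (-0.46), BAD (-0.35), PLXND1 (-0.17), FANCI (-0.15) and PRPS2 (-0.14). The genes that fell in both lines and more in U937 were MYC (-2.00), TFRC (-0.76), FDXACB1 (-0.66), NT5C (-0.64), CCT5 (-0.53), KIF20A (-0.48), MRPS28 (-0.46), NPM1 (-0.45), SNHG3 (-0.42), HEATR1 (-0.42), DHODH (-0.41), CDKN1B (-0.40), SLC16A3 (-0.34), PLK1 (-0.31), WEE1 (-0.28), SLC7A1 (-0.26) and FTL (-0.17). Those that fell in both lines and more in KG1A were PPP3CB (0.20) and ATG7 (0.17). The genes called in opposite directions were SLAMF8 (-2.40), ANKLE1 (-2.39), F2RL3 (-2.25), GPR84 (-2.02), LDLRAD4 (1.80), BTN3A1 (1.99), CCDC26 (2.53) and PPP1R32 (2.55).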

How the results depend on the processing

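Over 34 alternatives, the additive log2 changes of the 83 named genes given here yielded 2817 values, of which 2749 kept their direction and their side of the threshold. In 54 values the call was lost, 49 of them under the demand for a 2-fold change, and in 13 a call was gained. The only reversal was ANKLE1, at 0.29 with 1 model of the 4 groups, and the cause was not tested. E2F5, BAALC and PAX5 lost their call in the odd-numbered libraries alone, ATG7 in the even-numbered libraries alone and BAALC with libraries summed in pairs. With at least 2-fold changes required, the additive model called 286 genes higher and 53 lower, both lines shared 99 higher and 10 lower, 12 were opposite, U937 gave 795 higher and 413 lower, KG1A gave 290 higher and 64 lower, and 1298 differed between the lines. At an adjusted p under 0.01, 959 genes were lower in both lines and 851 opposite. The additive model called 1964 genes higher and 1915 lower in the odd-numbered libraries alone, 1977 higher and 1922 lower in the even-numbered ones, and 2250 lower with libraries 1 and 2, and 3 and 4, summed. Those fits hold fewer libraries. On RPKM, 907 genes were lower in both lines with a pseudocount of 0.5 and 905 with 0.1. Leaving out 1 library at a time gave 3129 to 3375 additive calls higher and 3196 to 3525 lower, 1467 to 1577 higher and 1312 to 1419 lower in both lines, and 1283 to 1376 opposite. With library number within each line as a replicate block, 2927 genes were higher and 3050 lower in the additive model, and both lines shared 1985 higher and 1987 lower, with 2059 opposite. Within U937 that block gave 4750 higher and 4918 lower, within KG1A 3708 higher and 3797 lower, and 8453 differed between the lines; it kept 1585 of the 1587 shared higher and all 1453 shared lower genes and changed no named gene's call. Of 314 gene list members called the same way in both lines, DESeq2 size factors kept 311, upper quartile factors 297, the RPKM fit 260 and leaving out 1 library 287 to 309, and none of these turned a member's direction. These list counts were recomputed after the data were seen. Low genes carry the widest errors: at 3 counts, the number that a count of 0 allows, a library reads 0.255 to 0.282 CPM.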

Other observations

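Of the 109 genes that changed at least 2-fold in both lines, 35 had a mean of at least 5 CPM in the higher group of each line. The genes described here are among those 109, are outside the rule for named genes and were chosen after their values were seen. CD38, an ectoenzyme of lymphoid and myeloid cells that splits NAD, had 69.3, 62.3, 73.2 and 65.8 CPM in the U937 NEL libraries, against 21.8, 24.1, 23.3 and 21.1 CPM in the U937 DMSO libraries. KG1A showed the same order at a lower level, with 13.7, 10.2, 12.8 and 12.3 CPM in the KG1A NEL libraries, against 5.10, 5.38, 4.43 and 5.22 CPM in the KG1A DMSO libraries. The changes were 1.58 in U937 and 1.28 in KG1A (edgeR adjusted p = 2.74e-10 and 1.71e-06), and the difference missed the threshold. SUCNR1, the succinate receptor, had 94.5, 94.5, 98.2 and 93.3 CPM in the U937 NEL libraries, against 20.3, 23.2, 24.6 and 21.3 CPM in the U937 DMSO libraries. In KG1A it had 69.8, 65.2, 76.6 and 68.8 CPM in the KG1A NEL libraries, against 31.4, 28.2, 28.8 and 30.5 CPM in the KG1A DMSO libraries. It rose by 2.09 in U937 and 1.24 in KG1A, and the difference between the lines was called (edgeR adjusted p = 6.25e-08).

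TDRD9, an RNA helicase known from the germ line, averaged 32.1 ± 1.06 CPM in U937 with NEL and 11.5 ± 1.97 CPM in U937 with DMSO, and 18.8 ± 0.902 CPM in KG1A with NEL and 8.19 ± 0.659 CPM in KG1A with DMSO (SD, n = 4 each). It rose by 1.47 in U937 and 1.20 in KG1A, and ZNF93, a zinc finger protein known to bind L1 elements, by 1.12 in U937 and 1.26 in KG1A. Neither difference between the lines was called. Receptors of leukocytes were also among the 109, with CXCR3 at 2.06 in U937 and 2.04 in KG1A, SLAMF1 at 1.72 in U937 and 2.00 in KG1A, IL21R at 1.55 in U937 and 1.20 in KG1A and IL1R1 at 1.01 in U937 and 1.19 in KG1A. In U937 with DMSO CXCR3, SLAMF1 and IL21R averaged 0.385, 0.476 and 0.499 CPM, so these 3 met the level rule in U937 only through the NEL group, and their rise there is a description. All 4 had means of at most 3.16 CPM in U937 with NEL. Their means in KG1A with NEL lay between 8.97 and 19.3 CPM.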
